A study of Homo sapiens with 12 samples.

Results

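Chemokines and inflammatory cytokines are the secreted signals by which a tissue calls in white blood cells and sets off local inflammation. The 10 genes described here are the chemokines CCL2, CCL21, CXCL1, CXCL8, CXCL12 and CXCL14, the cytokines IL6, LIF and IL1B, and NFKBIA, which encodes the NF-κB inhibitor IκBα. They were taken by gene name from the deposited count table, which lists 60583 gene names, and all 10 were found. Earlier results of these data were known when the group was drawn up, so the scaffold differences below are a description and nothing is supported with them.

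The series compared cardiac gene expression on a conducting and a non-conducting fibre mat. Cardiomyocytes derived from RUES2, an established human embryonic stem cell line of wild-type genotype, were kept in RPMI with B27 and insulin and were placed on electrospun scaffolds at day 50 for 3 days. The conductive scaffold was 9.75% PEDOT:PSS/PVA, a conducting polymer blend combined with polyvinyl alcohol, called PEDOT here. The control was 8% PVA, polyvinyl alcohol that does not conduct, so the scaffolds differ in composition as well as in conduction. Each scaffold had 3 biological replicates with 2 technical libraries each, 12 libraries of ribodepleted total RNA in all. All samples come from 1 cell line, and the labels do not say whether replicates were separate differentiations, so a p-value reflects only how far these samples vary.

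A chemokine binds receptors that span the membrane of its target cell and couple to G proteins. CC chemokines such as CCL2, which attracts monocytes through CCR2, and CCL21, which guides T cells and dendritic cells through CCR7, carry the first cysteines of the mature protein side by side. CXC chemokines have another residue between them. IL-6 and LIF signal through the shared receptor chain gp130 to STAT3, and IL-1β signals through its receptor to NF-κB. IκBα holds NF-κB in the cytoplasm, and its gene is itself switched on by NF-κB, as are CCL2, CXCL1, CXCL8 and IL6. Heart tissue makes several of these signals after injury, in muscle cells, fibroblasts and vessel cells as well as in white blood cells.

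The stretch that separates the CC from the CXC class is printed for the chemokines whose sequence was read, 5′ to 3′ on the coding strand, from GENCODE release 29 transcripts on GRCh38. Capitals mark the codons of the first cysteine pair of the mature protein.
CCL2, chr17:34256230-34256265, plus strand: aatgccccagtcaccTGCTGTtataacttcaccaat
CCL21, chr9:34709854-34709889, minus strand: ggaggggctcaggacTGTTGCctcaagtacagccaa
CXCL1, chr4:73869680-73869718, plus strand: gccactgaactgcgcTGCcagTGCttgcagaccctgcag
CXCL8, chr4:73741562-73741600, plus strand: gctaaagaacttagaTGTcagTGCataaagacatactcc
CXCL12, chr10:44380831-44380869, minus strand: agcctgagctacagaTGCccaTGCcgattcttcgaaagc
CXCL14, joined across exons 1 and 2: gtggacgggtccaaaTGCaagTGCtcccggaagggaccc
The cysteine codons adjoin in CCL2 and CCL21 and are parted by 1 codon in the CXC genes, in exon 2 of each gene other than CXCL14.

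Library totals were 19.1 to 31.0 M counts (median 24.1 M), and the 6 sums of technical libraries, on which the scaffold and replicate-number tests ran, held 44.5 to 57.5 M. Mitochondrial genes took 3.98 to 5.48% of counts. Cardiomyocyte markers (TNNT2, MYH6, MYH7, ACTN2, RYR2, TNNI1 and MYL7) were all detected and summed to 23403 to 30642 CPM (counts scaled to 1e6 per library) in PEDOT sums, against 21171 to 30652 CPM in PVA sums. White blood cell markers were near the bottom of the scale, at 2.97 to 4.53 CPM summed over 9 genes in PEDOT sums and 4.19 to 6.04 CPM in PVA sums, and PTPRC, CD68 and CD163 had 3 counts each over all 12 libraries. Technical libraries of a replicate differed by more than counting error (chi-square 5.86 to 14.5 per gene, PVA replicate 3 being the highest).

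Compared per kilobase of exon, NFKBIA had the highest mean level over the 6 sums at 16.1 CPM per kb. CCL21 followed at 7.93 CPM per kb, CXCL12 at 5.90, CCL2 at 3.80 and CXCL14 at 3.15 CPM per kb. LIF stood at 0.710 CPM per kb, CXCL8 at 0.303, IL6 at 0.160, IL1B at 0.0190 and CXCL1 at 0.0112 CPM per kb. The ranges of neighbours in this order overlapped, except that all 6 sums of CXCL14 (1.41 to 5.92 CPM per kb) lay above all 6 of LIF (0.440 to 0.858 CPM per kb). CCL21 had the widest range, 1.04 to 23.4 CPM per kb, and NFKBIA the narrowest in proportion, 14.3 to 18.2 CPM per kb. The classical acute signals IL1B, CXCL1, IL6 and CXCL8 were thus the 4 lowest, each with a mean under 1 CPM.

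**Figure D1:**
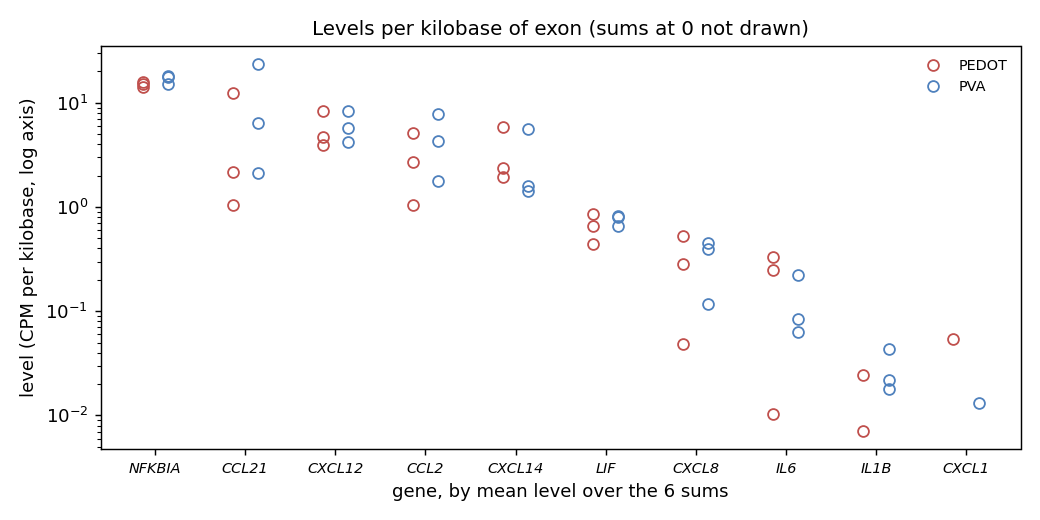
Level of each of the 10 genes in CPM per kilobase of exon (log axis) in the 3 PEDOT and 3 PVA sums, with genes ordered by their mean. NFKBIA lies between 14.3 and 18.2 CPM per kb in all sums, whereas CCL21 spreads from 1.04 to 23.4 CPM per kb, and sums at 0 are not drawn.

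Of the 10 genes, 8 had enough counts to be tested, and CXCL1 and IL1B did not. With the scaffold as the only term, edgeR's quasi-likelihood test called 0 of the 8, beside 0% of the 21298 genes tested. None of the 8 had an unadjusted p under 0.05, against 0.892% of all genes, and DESeq2 and limma-voom also called 0. The PEDOT and PVA sums overlapped in all 10 genes, while 4.60% of all tested genes had groups that did not overlap. Sums with the same replicate number deviated together on both scaffolds, so a fit that pairs them by replicate number was read beside the first. It called 2 of the 8, CCL2 and CCL21, both lower on PEDOT, beside 0.268% of all genes called and 0.197% called lower. With pairing, 4 of the 8 had an unadjusted p under 0.05, beside 8.32% of all genes. The median paired log2 difference of the 8 was -0.22, and that of all genes -0.004. Since the members were chosen with this contrast known, these shares are no evidence for the group.

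CCL2 (chromosome 17, 34255218 to 34257203 on hg38, plus strand) had 10.2, 2.09 and 5.43 CPM in PEDOT replicates 1, 2 and 3, against 15.5, 3.52 and 8.61 CPM in PVA replicates 1, 2 and 3. Each PEDOT sum lay below its same-numbered PVA sum, but the scaffolds overlapped, since PEDOT replicate 1 exceeded PVA replicates 2 and 3. Without pairing the log2 difference was -0.64 ± 0.67 (SE, n = 3 per scaffold; edgeR adjusted p 0.999986), and leaving out a sum moved it to between -1.29 (without PEDOT replicate 1) and -0.04 (without PVA replicate 1). With pairing it was -0.66 ± 0.11 (edgeR adjusted p 0.0293), which puts PEDOT at 63.1% of PVA. The differences within the pairs were close to each other, at -0.60, -0.74 and -0.66. Both PEDOT libraries lay below both PVA libraries in pairs 1 and 2 but not in pair 3, where PVA replicate 3 had 5.69 and 11.97 CPM in its 2 libraries, against 4.45 and 6.36 CPM in those of PEDOT replicate 3. The paired call was lost when either library of PEDOT replicate 1, or library 1 of PEDOT replicate 3, library 2 of PVA replicate 1, library 3 of PVA replicate 2 or library 3 of PVA replicate 3 was left out, or when pair 2 was. The lowest difference in size among these was -0.47 (adjusted p 0.283), without library 3 of PVA replicate 3.

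CCL21 (chromosome 9, 34709005 to 34710136, minus strand) had 11.7, 0.969 and 2.04 CPM in PEDOT replicates 1, 2 and 3, against 21.9, 2.00 and 5.94 CPM in PVA replicates 1, 2 and 3. It was lower on PEDOT in each pair and high in replicate number 1 on both scaffolds, so that the scaffolds overlapped. The unpaired log2 difference was -1.02 ± 1.09 (SE; edgeR adjusted p 0.999986). It turned to 0.30 without PVA replicate 1. The paired one was -1.14 ± 0.14 (edgeR adjusted p 0.00526), or 2.21-fold lower on PEDOT, with -0.91, -1.02 and -1.52 in the 3 pairs. Within each pair the libraries of the 2 scaffolds did not overlap, with 9.50 and 13.5 CPM on PEDOT against 20.3 and 23.8 CPM on PVA in pair 1. In pair 2 they had 0.690 and 1.27 CPM on PEDOT, against 1.47 and 2.40 CPM on PVA. In pair 3 they had 1.17 and 2.89 CPM on PEDOT, against 6.53 and 5.27 CPM on PVA. CCL21 was called in all 15 paired fits that left out a pair or a library, at log2 differences of -1.34 to -0.95. Calls of CCL2 and CCL21 were both lost, with the direction kept, under upper-quartile scaling, with only genes of mean CPM 5 or more, and when 1 technical library per replicate was used.

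Marker lists were read beside these values. The summed smooth muscle and pericyte markers stood at 2065, 1121 and 1578 CPM in PEDOT replicates 1, 2 and 3, against 2396, 1412 and 2107 CPM in PVA replicates 1, 2 and 3. ACTA2 and RGS5, which hold most of that sum, were called lower on PEDOT in the paired fit, while of all 8 markers 5 had a paired log2 difference below 0 and 3 above it (PDGFRB 0.26, MYH11 0.15 and ABCC9 0.06). Neural markers summed to 13.8, 3.81 and 10.3 CPM on PEDOT and 20.4, 5.59 and 11.3 CPM on PVA. That sum is mostly STMN2 (paired log2 difference -0.47, edgeR adjusted p 0.174). The only other neural marker tested, ELAVL3, had a difference of 0.09, and 0 of the list were called. White blood cell markers summed to 4.53, 2.97 and 3.98 CPM on PEDOT and 6.04, 4.35 and 4.19 CPM on PVA. That sum was lower on PEDOT in each pair and highest in number 1 on both scaffolds, which its members did not share. CSF1R was higher on PEDOT in pair 1 (1.45 against 1.19 CPM), ITGAM in pair 2 (0.668 against 0.653 CPM) and TYROBP in pair 3 (1.72 against 1.65 CPM). Among the 3 markers tested, only TYROBP was highest in number 1 on both scaffolds. CD14, too low to test at 25 counts, was also highest there on both. The 3 tested (CSF1R, ITGAM and TYROBP) had paired log2 differences below 0, and 0 were called. MYH7, a cardiomyocyte marker, was the third marker called in the paired fit, higher on PEDOT (paired log2 difference 0.95, edgeR adjusted p 0.0382). Lymphatic endothelium is a known source of CCL21. LYVE1 and FLT4, which mark it, had 63 and 102 counts over the 12 libraries, while PROX1 and PDPN, which other cells also express, made up nearly all of that list's summed 215 to 235 CPM in PEDOT sums and 222 to 245 CPM in PVA sums. Endothelial markers summed to 19.0 to 31.0 CPM in PEDOT sums and 28.8 to 31.6 CPM in PVA sums, with 0 of 6 called. Other lists leaned the other way. Of 6 fibroblast markers tested, 5 had a paired log2 difference above 0 and 1 below it, with 0 called. Of 6 epicardial and mesothelial markers tested, 4 lay above 0 and 2 below, with 0 called. Of the 7 cardiomyocyte markers 6 lay above 0 and 1 below. The part of these cell types in the chemokine values was not tested, and in bulk RNA fewer cells of a type and less RNA per cell cannot be told apart.

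**Figure D2:**
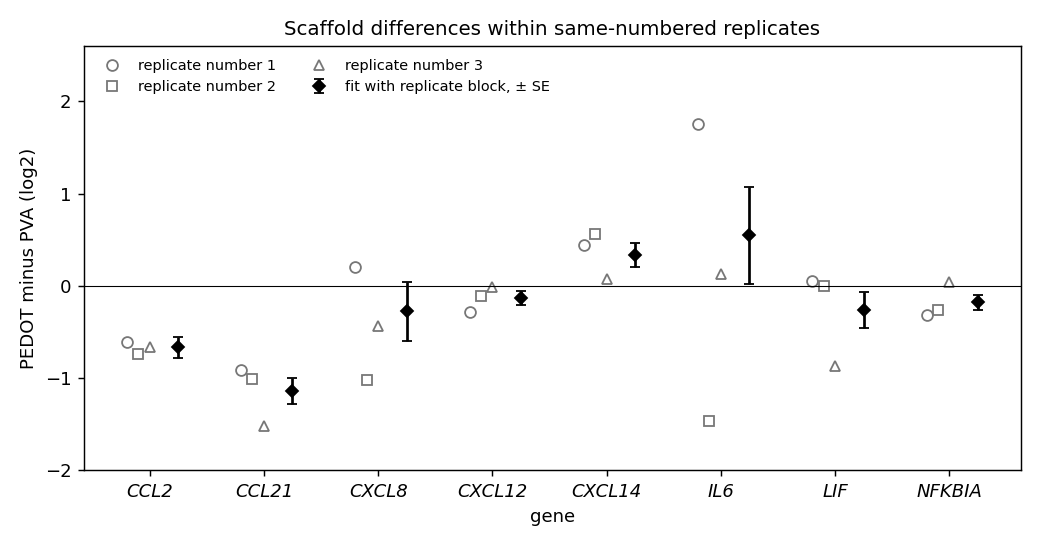
Difference in log2 CPM, PEDOT minus PVA, within each same-numbered pair (open symbols) and from the fit with the replicate block (filled diamonds, ± SE) for the 8 tested genes. CCL2 and CCL21 lie below 0 in all 3 pairs, CXCL14 lies above 0 in all 3, and the pairs of IL6 point both ways.

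CXCL8, which encodes IL-8, the main attractant of neutrophils, sits on chromosome 4 (73740541 to 73743716, plus strand). It had 1.17, 0.108 and 0.638 CPM in PEDOT replicates 1, 2 and 3, against 1.02, 0.261 and 0.877 CPM in PVA replicates 1, 2 and 3. The scaffolds overlapped, and replicate 2 was lowest on both. PEDOT was higher in pair 1 and lower in pairs 2 and 3, and the paired log2 difference was -0.28 ± 0.32 (edgeR adjusted p 0.903), on 207 counts in all libraries. That value was -0.03 without library 1 of PEDOT replicate 3, -0.61 without library 3 of the same replicate and -0.69 without pair 1, and it was not called in any of these fits.

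CXCL1, a related attractant of neutrophils on chromosome 4 (73869393 to 73871308, plus strand), had 5 counts in all, 4 on PEDOT and 1 on PVA. The 4 all came from library 3 of PEDOT replicate 1, and the 1 from library 3 of PVA replicate 3. The exact 95% Poisson interval, which covers counting error only, was 0.00739 to 0.0694 CPM on PEDOT and 0.000171 to 0.0376 CPM on PVA, so a difference was not detectable at this depth. CXCL1 resembles CXCL2 and CXCL3 in sequence, and read pairs that match more than 1 of them may have been left out of the counts, so its level is uncertain.

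CXCL12, the stromal chemokine that binds CXCR4 and ACKR3, was the most abundant chemokine in CPM (chromosome 10, 44370165 to 44386493, minus strand). It had 28.8, 23.9 and 50.6 CPM in PEDOT replicates 1, 2 and 3, against 35.1, 25.8 and 51.2 CPM in PVA replicates 1, 2 and 3. Replicate 3 was highest and replicate 2 lowest on both scaffolds, and the scaffolds overlapped. The paired log2 difference was -0.14 ± 0.07 (edgeR adjusted p 0.698), and the differences in pairs 1, 2 and 3 were -0.29, -0.11 and -0.02, lower on PEDOT in each. Being lower in 3 of 3 pairs was shared by 3 of the 8 genes and by 15.6% of all genes.

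CXCL14, a chemokine made by epithelium and fibroblasts whose receptor is less settled, lies on chromosome 5 (135570679 to 135579279, minus strand). It had 3.82, 4.70 and 11.7 CPM in PEDOT replicates 1, 2 and 3, against 2.79, 3.18 and 11.1 CPM in PVA replicates 1, 2 and 3. It was the only one of the 8 with higher PEDOT values in all 3 pairs, as 13.3% of all genes had, and the scaffolds overlapped. The paired log2 difference was 0.33 ± 0.13 and did not pass (edgeR unadjusted p 0.0262, adjusted p 0.523). The 2 libraries of PVA replicate 2 had 1.93 and 4.11 CPM, and without pairing the difference turned negative when PEDOT replicate 3 (-0.43), PVA replicate 1 (-0.09) or PVA replicate 2 (-0.05) was left out.

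IL6, an acute-phase cytokine (chromosome 7, 22725884 to 22732002, plus strand), had 102 counts in all. Its levels were 0.679, 0.0215 and 0.511 CPM in PEDOT replicates 1, 2 and 3, against 0.173, 0.131 and 0.465 CPM in PVA replicates 1, 2 and 3. It was higher on PEDOT in pair 1 and lower in pair 2, with log2 differences of 1.75, -1.46 and 0.12 in the 3 pairs. The paired difference was 0.55 ± 0.53 (edgeR adjusted p 0.866). A count of 0 in a library, as in library 1 of PEDOT replicate 2, allows a level of up to 0.129 CPM there.

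LIF, an IL-6 family cytokine that signals through LIFR and gp130 (chromosome 22, 30240453 to 30246759, minus strand), had 3.32, 2.56 and 1.70 CPM in PEDOT replicates 1, 2 and 3. It had 3.21, 2.57 and 3.13 CPM in PVA replicates 1, 2 and 3. The log2 difference was 0.05 in pair 1, -0.002 in pair 2 and -0.86 in pair 3, where both PEDOT libraries (1.42 and 1.99 CPM) lay below both PVA libraries (3.04 and 3.21 CPM). The paired log2 difference was -0.26 ± 0.20 (edgeR adjusted p 0.811), and it was 0.02 without pair 3.

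IL1B, the precursor of the fever-inducing cytokine IL-1β, lies on chromosome 2 (112829751 to 112836816, minus strand). It had 5 counts on PEDOT and 12 on PVA, or 0.0339 CPM (exact 95% Poisson interval 0.0110 to 0.0791) against 0.0810 CPM (0.0418 to 0.141). The intervals overlap, and a difference was not detectable at this depth.

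NFKBIA (chromosome 14, 35401511 to 35404749, minus strand) had 33.9, 36.0 and 37.4 CPM in PEDOT replicates 1, 2 and 3, against 42.3, 43.1 and 36.4 CPM in PVA replicates 1, 2 and 3. The log2 difference was -0.32 in pair 1 and -0.26 in pair 2, with no overlap of libraries, and 0.04 in pair 3. The scaffolds overlapped through PVA replicate 3. The log2 difference was -0.18 ± 0.10 without pairing (edgeR unadjusted p 0.108) and -0.18 ± 0.08 with it (unadjusted p 0.0400, adjusted p 0.574). NFKBIA was the only one of the 8 genes in which the scaffold took the largest share of the variation, for which no share over all genes is given here.

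**Figure D3:**
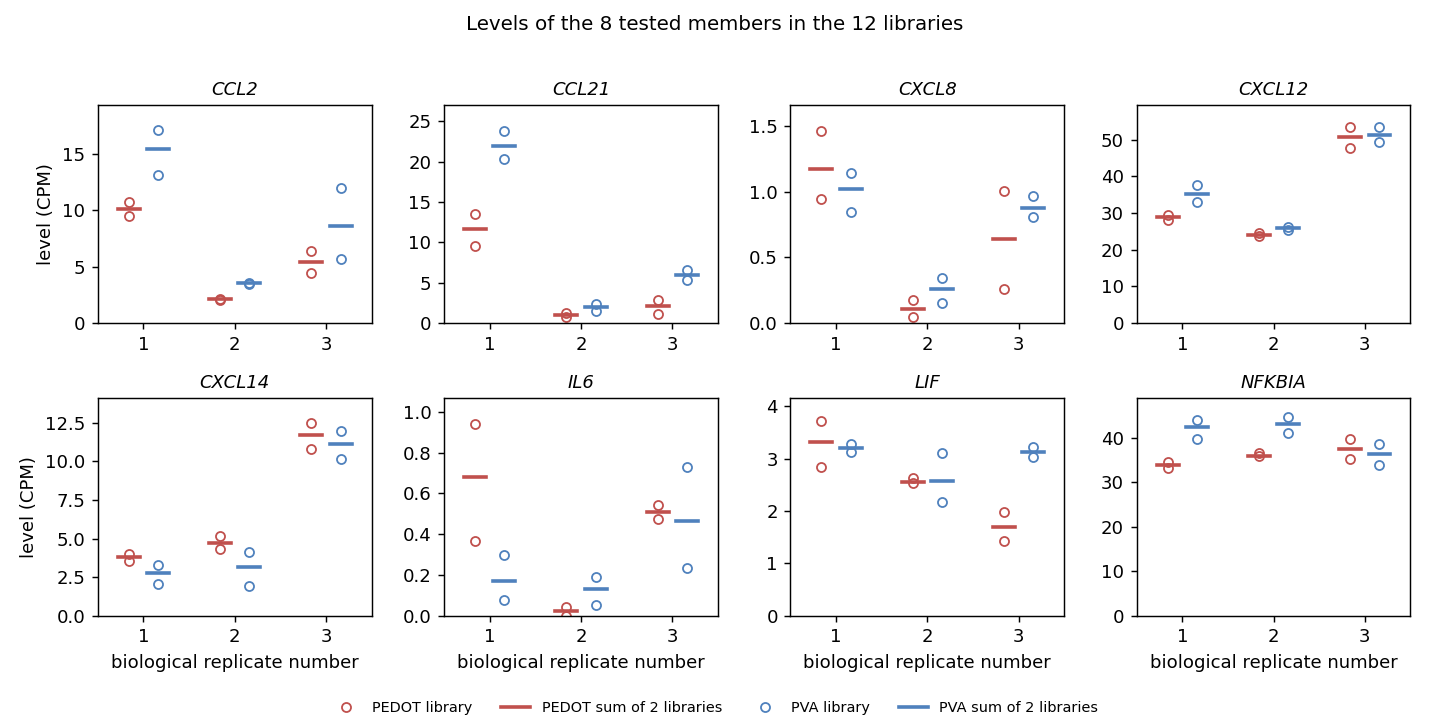
CPM of the 8 tested genes in each library (open circles) and in each sum of 2 libraries (bars), by replicate number, with PEDOT left of PVA. CCL2, CCL21 and CXCL8 are highest in replicate number 1 and lowest in number 2 on both scaffolds, CXCL12 and CXCL14 are highest in number 3, and NFKBIA is nearly level.

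Because the replicate number moved these genes so widely, the sums were also compared by number, with the scaffold in the model. Replicate numbers were called different in 6 of the 8 genes (edgeR's quasi-likelihood F test), beside 31.8% of all genes. CCL2, CCL21 and CXCL8 were highest in number 1 and lowest in number 2, a called difference with the highest mean in number 1 being found in 12.5% of all genes and with the lowest in number 2 in 15%. CXCL12, CXCL14 and IL6 had their highest mean in number 3, though on PEDOT alone IL6 was highest in number 1. A called difference with the highest mean in number 3 was found in 7.65% of all genes. LIF and NFKBIA were not called (adjusted p 0.283 and 0.731).

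CCL21 had the widest span, with number 1 at 11.6 times number 2 and 4.44 times number 3 (adjusted p 9.19e-09). All 4 libraries of number 1 lay above the other 8, as in 5.67% of all genes. CCL2 was 4.60-fold higher in number 1 than in number 2 (adjusted p 1.95e-07), and CXCL8 6.02-fold higher (adjusted p 0.00121). CXCL14 was 3.49-fold higher in number 3 than in number 1 (adjusted p 1.20e-06), and CXCL12 2.05-fold higher in number 3 than in number 2 (adjusted p 2.57e-06). The 4 libraries of number 2 lay below the other 8 in CCL2 and CXCL12, as in 8.95% of all genes. The 4 libraries of number 3 lay above the other 8 in both CXCL12 and CXCL14, as in 3.04% of all genes. IL6 was 6.24-fold higher in number 3 than in number 2 (adjusted p 0.0318), a call that did not hold under 3 of 12 other settings (adjusted p 0.377 without PEDOT replicate 2, range over all 12 0.000223 to 0.377).

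The sum of squares of log2 CPM over the 6 sums was split by replicate number and scaffold. With 3 numbers but 2 scaffolds, the number takes on average a larger share than the scaffold when neither has an effect. In CCL2 the replicate number took 87.8% of the sum of squares, the scaffold 12.1% and the rest 0.0866%. For CCL21 these shares were 85.6%, 13.7% and 0.740%, and for CXCL12 96.0%, 2.42% and 1.62%. NFKBIA had another order, with 51.0% for the scaffold, 39.4% for the rest and 9.60% for the number. The rest was smallest in CCL2. It is by construction the spread of the 3 within-pair differences, so this restates how even they were in CCL2.

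**Figure D4:**
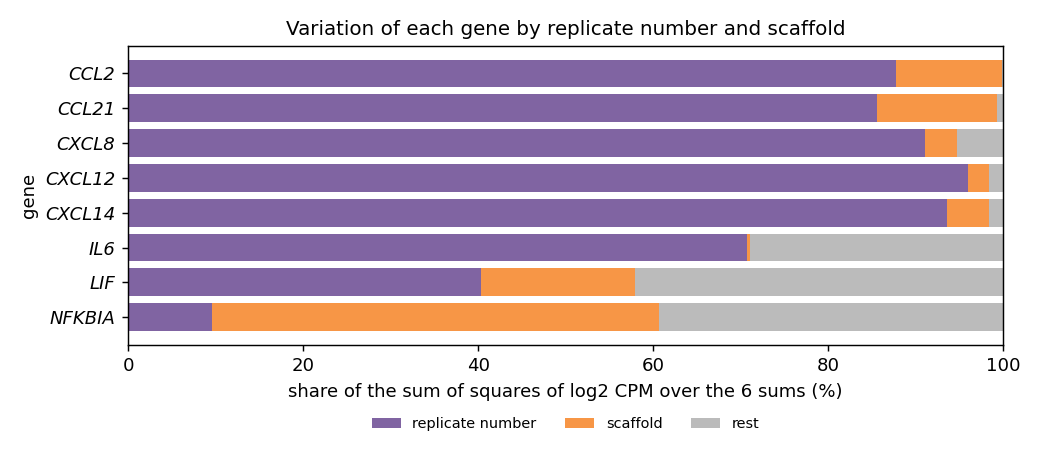
Share of the sum of squares of log2 CPM over the 6 sums that goes with replicate number, with scaffold and with the rest, for the 8 tested genes. Replicate number takes 87.8% in CCL2 and 96.0% in CXCL12, and the scaffold takes 51.0% in NFKBIA.

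Fibroblast markers varied by number as well. Their summed level was 5144, 601 and 2748 CPM in PEDOT replicates 1, 2 and 3, against 2813, 574 and 2458 CPM in PVA replicates 1, 2 and 3. Number 2 was thus lowest on both scaffolds, as in CCL2, CCL21, CXCL8, CXCL12 and IL6. COL1A1 and COL3A1 make up most of that sum, and each of the 6 markers tested was lowest in number 2 on both scaffolds. This was not particular to fibroblast markers. It held for all 8 smooth muscle and pericyte markers, the 2 neural markers tested and 4 of 6 epicardial and mesothelial markers. It also held for 2 of 3 lymphatic endothelial, 1 of 3 white blood cell, 1 of 4 endoderm, 1 of 6 endothelial and 1 of 7 cardiomyocyte markers. The cardiomyocyte sum, mostly MYH6, was highest in number 2, at 30642 CPM on PEDOT and 30652 CPM on PVA, but its members did not share that order: MYH7 was lowest in number 2 on both scaffolds, and RYR2 and TNNI1 were highest in number 3. The part of cell composition in the differences between numbers was not tested.

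The genes whose profile over the 12 libraries was most like each member's were chosen by Pearson's r of log2 CPM among 15689 genes with a mean of 1 CPM or more, as a description, since the libraries share 3 replicate numbers and 2 scaffolds. For CCL2 they were TUBA1A, an alpha tubulin (r = 0.978), TOX and TNFRSF1A, the main TNF receptor. For CCL21 they were GAL, the neuropeptide galanin (r = 0.980), TRIB1 and SPRED2. GAL had 5.69, 1.25 and 2.02 CPM in PEDOT replicates 1, 2 and 3, against 8.03, 2.20 and 3.44 CPM in PVA replicates 1, 2 and 3. For CXCL12 they were HNMT (r = 0.969), BAALC and MYD88, the adaptor of IL-1 and Toll-like receptors. For CXCL14 they were TRPC1 (r = 0.950), ATXN1-AS1 and KCTD9. LIF was most like FNDC10 (r = 0.919), MIIP and ZC3H12A, which encodes an RNase known to degrade cytokine mRNAs. NFKBIA was most like BABAM2 (r = 0.896), ALAD and STX16.

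Promoter stretches are shown for the tested genes known to be NF-κB targets that had a RefSeq entry (GRCh38.p14), with a κB-like motif, GGNNTTTCC on either strand, in capitals. The motif was chosen after the sequences were seen. It occurs in 6.26% of 35116 promoters over the same 300 bases, and a match is a description of the letters only.
CXCL8, chr4:73740458-73740506, plus strand: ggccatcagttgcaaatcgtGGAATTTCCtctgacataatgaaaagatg
IL6, chr7:22727108-22727156, plus strand: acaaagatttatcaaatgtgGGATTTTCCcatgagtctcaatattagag
NFKBIA, chr14:35404963-35404999, minus strand: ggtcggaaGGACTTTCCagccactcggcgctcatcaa
NFKBIA, chr14:35404802-35404850, minus strand: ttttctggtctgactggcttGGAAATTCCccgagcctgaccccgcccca
In CXCL8 the motif starts 91 bases before the RefSeq start and in IL6 72 bases before it, and NFKBIA has 2 matches, at 242 and 81 bases. CXCL1, too low to test, has 2 matches, and CXCL12, CXCL14 and IL1B have none in their windows.

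The wider pathways were read from 6 lists of 132 genes in all, of which 82 were tested. Without pairing 0 of the 82 were called and 0 had an unadjusted p under 0.05 in edgeR, beside 0.892% of all genes. With pairing 0 were called, and 13 had an unadjusted p under 0.05, all lower on PEDOT, a direction that 4.38% of all genes took at that p. DESeq2 and limma-voom also called 0 of them, with and without pairing.

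Among 32 other chemokines, 25 were too low to test and 5 had no count. The 3 most abundant were CX3CL1, the membrane-bound fractalkine, CXCL16 and CCL5. CX3CL1 had 9.74, 13.5 and 9.70 CPM in PEDOT replicates 1, 2 and 3, against 9.83, 15.2 and 10.7 CPM in PVA replicates 1, 2 and 3, highest in number 2. CXCL16, a transmembrane chemokine that binds CXCR6, had 4.39, 2.56 and 2.17 CPM on PEDOT and 6.30, 2.89 and 2.94 CPM on PVA. CCL5, an attractant of T cells, had 0.844, 0.280 and 0.319 CPM on PEDOT and 1.80, 0.131 and 0.465 CPM on PVA. The median paired log2 difference of the 7 tested was -0.39, with 6 below 0, beside a median of -0.004 over all genes. By replicate number 6 of the 7 were called, beside 31.8% of all genes.

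Of 22 chemokine receptors 8 were tested, with a median paired log2 difference of 0.04 and 3 of the 8 below 0. The most abundant were ACKR2 and ACKR3, decoy receptors that take up chemokines without signalling through G proteins, and CXCR4, the signalling receptor of CXCL12. ACKR3 had 6.75, 2.69 and 5.15 CPM in PEDOT replicates 1, 2 and 3, against 5.13, 2.94 and 4.17 CPM in PVA replicates 1, 2 and 3. CXCR4 had 4.13, 3.62 and 1.83 CPM on PEDOT and 3.92, 3.11 and 2.15 CPM on PVA, lowest in number 3 where its ligand CXCL12 was highest. ACKR2 had 4.37, 7.04 and 6.41 CPM on PEDOT and 4.55, 7.66 and 4.57 CPM on PVA. The receptors of CCL2 and CCL21 were picked out after their values were seen. CCR2 had 5 counts in all and was not tested, and CCR7 had 1.52, 1.25 and 0.660 CPM on PEDOT and 1.39, 1.57 and 0.841 CPM on PVA.

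The receiving end of IL-6 and LIF was far more abundant than the cytokines. IL6ST, which encodes gp130, had 936, 561 and 757 CPM in PEDOT replicates 1, 2 and 3, against 952, 598 and 854 CPM in PVA replicates 1, 2 and 3. STAT3 had 470, 424 and 529 CPM on PEDOT and 499, 462 and 501 CPM on PVA, and JAK1 had 195, 185 and 205 CPM on PEDOT and 215, 219 and 204 CPM on PVA. Of the 16 tested genes of that pathway, 11 had a paired log2 difference below 0, and the median was -0.05. In the IL-1 pathway IL1R1, the signalling receptor, had 135, 29.8 and 67.0 CPM on PEDOT and 156, 32.3 and 76.4 CPM on PVA, the same order of numbers as CCL2. IL1RAP, its partner chain, had 68.8, 43.3 and 43.7 CPM on PEDOT and 73.0, 47.2 and 57.9 CPM on PVA. TRAF6, the ubiquitin ligase downstream, was level at 34.0 to 35.3 CPM on PEDOT and 32.4 to 34.3 CPM on PVA. The median paired log2 difference of the 13 tested IL-1 genes was -0.20, with 9 below 0.

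Among 21 tested genes of the NF-κB core, 17 had a paired log2 difference below 0, with a median of -0.06, beside -0.004 over all genes. TAB2 had 327, 232 and 293 CPM in PEDOT replicates 1, 2 and 3, against 351, 256 and 285 CPM in PVA replicates 1, 2 and 3. TNFRSF1A had 93.2, 46.8 and 70.4 CPM on PEDOT and 109, 55.4 and 85.4 CPM on PVA, lower on PEDOT in each pair (paired log2 difference -0.25 ± 0.06, edgeR adjusted p 0.163). MAP3K7, the kinase TAK1, was level at 71.3 to 77.7 CPM on PEDOT and 73.0 to 77.9 CPM on PVA. Among 17 tested NF-κB target genes 10 had a paired log2 difference below 0, and the median was -0.03. SOD2 had 401, 488 and 551 CPM on PEDOT and 343, 536 and 508 CPM on PVA, and VCAM1, an adhesion molecule for white blood cells, had 68.8, 146 and 102 CPM on PEDOT and 75.7, 154 and 113 CPM on PVA. TNIP1 had 111, 111 and 101 CPM on PEDOT and 125, 100 and 99.0 CPM on PVA. By replicate number 58 of the 82 list genes were called, among them 15 of the 17 targets and 11 of the 21 core genes, beside 31.8% of all genes.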

How the data were processed

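Ribodepleted total RNA of 12 libraries was sequenced (3 biological replicates on PEDOT and 3 on PVA, 2 technical libraries each). Read pairs were counted per gene name with featureCounts 2.0.1 (paired, reversely stranded, GENCODE release 33), and these deposited counts are raw, per the file headers. That command names no option for multi-mapping pairs. Per the submitters' processing notes, the tools include STAR, FastQC, edgeR and DESeq2, and the build is hg38.

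Technical libraries were summed to 6 sums. Genes were kept by filterByExpr (minimum count 10, total 15), scaled by TMM, and edgeR 4.0.16 was used for testing (R 4.3.3, quasi-likelihood, two-sided, Benjamini-Hochberg over 21298 genes, threshold 0.05). The scaffold was the only term. Pairing by replicate number is an alternative, read beside it because same-numbered sums deviated from their scaffold means together (r = 0.678, 0.703 and 0.503 across genes, other pairs -0.609 to -0.00497). No label states what a number shares. A further test asked for differences between numbers with the scaffold in the model. CPM uses TMM-scaled totals, log2 CPM a prior count of 2, and an SE is the log2 difference over the square root of F. Alternatives were RLE, upper-quartile and library-size scaling, other filters, DESeq2 1.42.0, limma-voom 3.58.1, either technical library alone and leaving out sums, pairs or libraries. Repeats of the paired fit under the other scalings, filters, tools and single technical libraries were chosen after seeing the data. Scripts were tested on simulated data.

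Members and lists were chosen with earlier results of these data known. All members are named, with the 3 most abundant genes of each list, any gene called there, and the 3 genes most like each member of mean CPM 1 or more. A count of 0 allows 3 counts, or 0.100 to 0.152 CPM in a library. Coding and promoter sequences come from GENCODE 29 and RefSeq, and 7 of 10 members had a promoter entry.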

Additional observations from a re-analysis of the deposited data

Results flagged for a closer look

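IL6 stood out in 2 ways. Among the 6 PVA libraries, library 3 of replicate 3 (0.731 CPM) was far above the others, with a gap to the next of 0.636 of the range. Its log2 difference was 1.75 in pair 1, where both PEDOT libraries lay above both PVA libraries, and -1.46 in pair 2, where both lay below, and the difference between the pairs was not tested. LIF in library 3 of PVA replicate 2 (2.17 CPM) was far below the other PVA libraries, with a gap of 0.783 of the range. Of 16 groups of 6 libraries 2 passed this limit of Dixon's test, and chance alone passes about 1 in 20. The libraries are technical pairs, so they are not independent.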

How the results depend on the processing

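Without pairing, 0 genes and 0 of the 8 members were called under every scaling, filter, tool and left-out sum, and with the replicate block 57 genes and 2 members were. Among other paired settings, 1 gene was called under upper-quartile scaling and 1 with mean CPM of 5 or more, 37 on library size only, 389 with every gene that has a count, 96 in DESeq2, 16 on the lower-numbered and 4 on the higher-numbered libraries alone. Left-out pairs or libraries gave 4 to 284. Members called were 0 under upper-quartile scaling, mean CPM of 5 or more and either technical library alone, 2 under the others, and 1 to 2 with a pair or library left out. CCL2 kept its paired call in 13 of 24 settings and CCL21 in 20, both with the direction kept. Calls by replicate number ranged from 4538 to 7702 genes and from 4 to 6 members. Leaving out a sum turned unpaired log2 differences of CCL21 (-2.72 to 0.30), CXCL12 (-0.51 to 0.18), CXCL14 (-0.43 to 1.17) and CXCL8 (-0.94 to 0.33), and limma-voom gave -0.018 for IL6. Leaving out a pair or library gave paired ones of -0.34 to 0.97 for IL6, turned without pair 1, of -0.43 to 0.024 for LIF, turned without pair 3, and of -0.69 to -0.03 for CXCL8. The cause was not tested. Depth limits CXCL1, IL1B and IL6.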
